A study of Mus musculus and Homo sapiens with 20 samples.

Results

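The transcriptional responses of 2 mouse cell lines to the same HSP90 inhibitor were compared gene by gene. One was MEF, embryonic fibroblasts. The other was HPC-7, a blood progenitor line that was derived from embryonic stem cells and grows with stem cell factor, the ligand of the KIT receptor. Each line had 3 Control libraries, whose count columns are named for the solvent DMSO, and 3 libraries from cells treated for 16 h with NVP-AUY922 (HSP90i), with a dose of 200 nM for MEF and 50 nM for HPC-7. No genotype, strain, passage or medium was given for any group. These were 12 of the 20 samples of the series, which concerns HSP90 in the nucleus. The quantity compared was the log2 change (HSP90i over Control) in MEF minus that in HPC-7, called the difference of responses below and tested as the interaction of line and treatment. It was taken for every gene with a mean of at least 1 CPM (counts scaled to the library total) in both lines, which left 10167 of the 43626 genes of the tables. Dose differed with line, so line and dose cannot be told apart in any difference reported here.

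HSP90 is an ATP-dependent chaperone that stabilises protein kinases, steroid receptors and transcription factors in their active or activatable form, with co-chaperones that deliver clients and pace its ATP cycle. NVP-AUY922 occupies the ATP-binding pocket that the cytosolic HSP90 proteins share with the homologues of the endoplasmic reticulum (ER) and of mitochondria. Loss of HSP90 activity is known to release the transcription factor HSF1, which binds heat shock elements (inverted repeats of the unit GAA) and induces chaperone genes.

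Library totals ran from 10542305 to 22872539 counts for MEF and 10131491 to 16859394 for HPC-7, and the tested genes held 90.97% of all counts. No label states whether replicates came from separate cultures, and the p-values therefore reflect only the spread between these libraries, which may be technical. Of 15 fibroblast markers, 13 had a mean of at least 1 CPM in MEF Control, and their sum was 31110 to 32570 CPM there against 897 to 938 CPM in HPC-7 Control. In HPC-7, Col1a1, Col1a2, Col3a1 and Fn1 had at most 5 counts in any library, and the remaining sum came mostly from Fap, Pdgfrb and Vim. Fap, the fibroblast activation protein, went against its list, with 381 CPM in HPC-7 Control and 0.455 CPM in MEF Control. All 15 blood progenitor markers passed 1 CPM in HPC-7 Control, where they summed to 4353 to 4361 CPM against 7552 to 8428 CPM in HPC-7 HSP90i. In HPC-7 the summed erythroid and megakaryocyte markers were at 637 to 646 CPM in Control and 1094 to 1492 CPM in HSP90i libraries, and the endothelial markers at 159 to 174 CPM and 355 to 473 CPM. Single markers did not all go the same way. In the blood list the HPC-7 means of Kit and Itga2b were 925 and 287 CPM in Control and 2600 and 1010 CPM in HSP90i, while those of Cd34 and Lyl1 were 320 and 323 CPM and then 58.1 and 165 CPM. In the erythroid and megakaryocyte list the mean of Itgb3 went from 290 to 1010 CPM and that of Pf4 from 285 to 139 CPM. The part of these shifts in the differences below was not tested. In bulk RNA, fewer cells of a type and less RNA per cell cannot be told apart.

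In 2 respects libraries stood apart. HPC-7 HSP90i replicate 2 had a smaller response than its replicates: the slope of its gene-wise log2 changes on the mean of the other 2 libraries was 0.757, against 1.09 and 1.12 for replicates 1 and 3 and 0.979 to 0.986 for the MEF libraries. Several values that rest on this library are also given without it. MEF Control replicate 3 held blood transcripts that the other MEF Control libraries nearly lacked: Kit, Myb, Tal1 and Vav1 together had 150 counts there, against 4 and 0 counts in replicates 1 and 2 and 2, 0 and 15 counts in the treated MEF libraries. These 150 counts equalled 0.828% of the level of the same genes in HPC-7 Control. Such a trace weighs on genes that MEF hardly express, and 44 tested genes had a level in MEF Control replicates 1 and 2 below 2% of that in HPC-7 Control. Among the genes picked by the naming rules these were Vipr2, Tspan13, Ccdc88c and Mycn. Their differences without MEF Control replicate 3 were 6.25, 5.24, 4.59 and 1.73, against 5.32, 5.09, 4.35 and 1.43 with it. Kit, given below among the client kinases, was also 1 of the 44.

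The difference of responses passed the test for 5573 genes, or 54.8% of those tested (edgeR's quasi-likelihood test, Benjamini-Hochberg adjusted p under 0.05). The MEF response lay above the HPC-7 response for 2388 genes (23.5%) and below it for 3185 genes (31.3%), and the difference was at least 2-fold for 689 and 967 of these. The split between above and below depended on the scaling. Calls above were 42.8% of all calls with TMM factors over the 12 libraries, 52.9% with library size alone, 55.2% with upper quartile factors and 55.8% to 57.5% when any MEF library was left out. The median difference over all genes was -0.05 on the log2 scale with TMM factors, 0.08 with upper quartile factors and 0.16 without a filter on low counts, so shifts of this size carry no direction. Of the 5573 genes, 4893 were called with the same sign under upper quartile factors and 5076 by DESeq2.

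**Figure D1:**
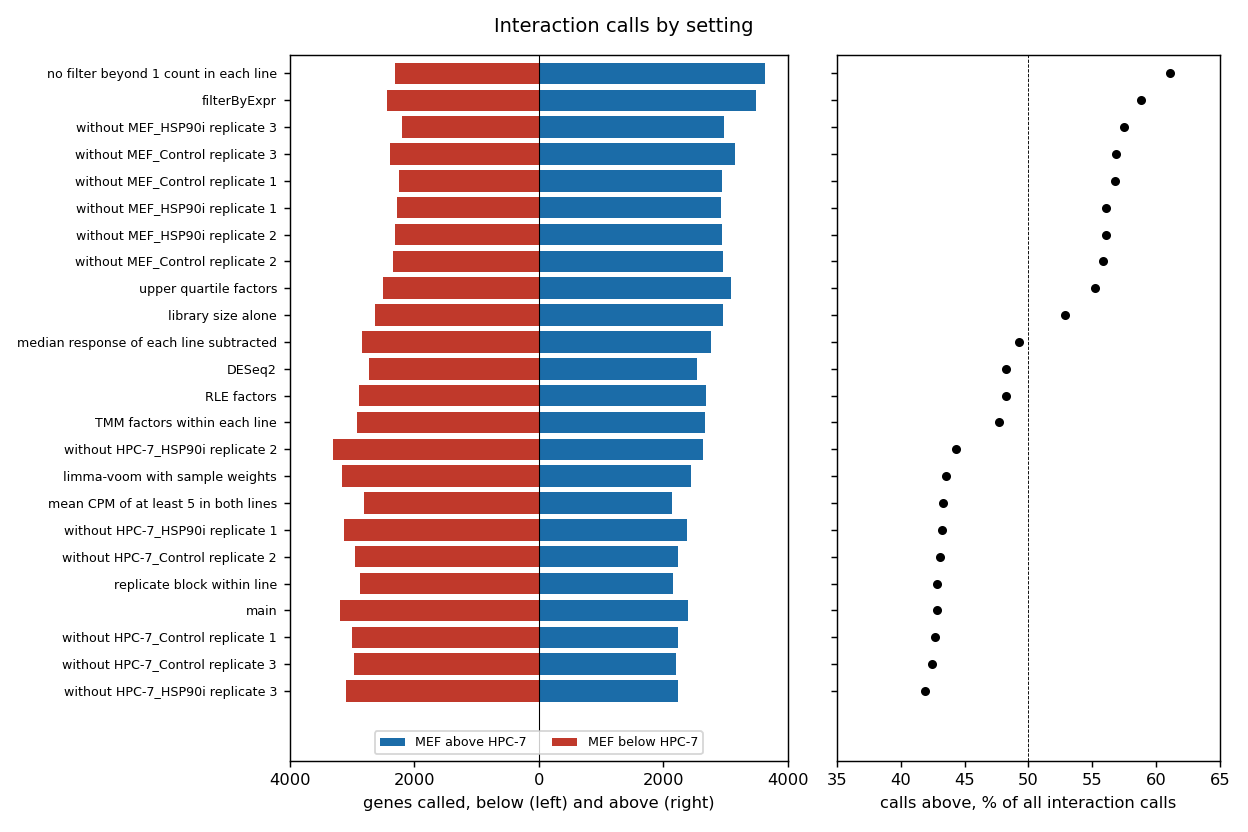
Numbers of genes called above and below in the difference of responses (left, bars from 0) and calls above as a percentage of all interaction calls (right) under each setting, one row per setting. The percentage runs from 41.9% to 61.1%, and the row named main is the fit reported in the text.

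Within each line most tested genes changed. In MEF 3685 genes rose (36.2%) and 3592 fell (35.3%), and in HPC-7 4313 rose (42.4%) and 3468 fell (34.1%). Responses of the 3 treated libraries of a line, each taken against its own controls, did not overlap between the lines for 6946 genes (68.3%), and 99.6% of the called differences were among them. Across genes the 2 responses correlated with Pearson's r = 0.568 and Spearman's rho = 0.569 over 10167 genes, which share libraries and are not independent replicates. Genes called in both lines numbered 5920, or 81.4% of the MEF calls and 76.1% of the HPC-7 calls. Of these 4793 changed the same way and 1127 opposite ways. All 1127 had a called difference, 456 of them rising in MEF and falling in HPC-7 and 671 the reverse. Among genes that changed the same way, 903 changed significantly more in MEF, 1254 changed significantly more in HPC-7, and the difference was not called for 1385 that rose and 1251 that fell.

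**Figure D2:**
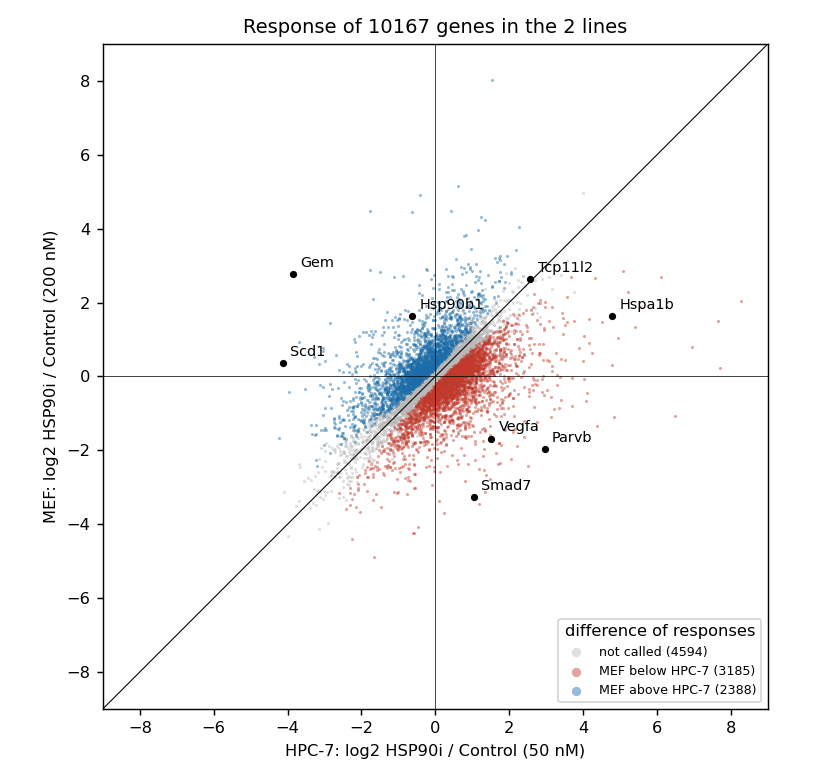
Log2 change after HSP90i in HPC-7 (x axis) and MEF (y axis) for the 10167 tested genes, one point per gene, coloured by the call on the difference, with equal responses on the diagonal. Gem and Scd1 lie in the quadrant higher in MEF and lower in HPC-7, Parvb, Vegfa and Smad7 in the opposite quadrant, and Tcp11l2 on the diagonal.

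The 2 lines also lay further apart in HSP90i than in Control libraries. The SD over genes of the log2 ratio of MEF to HPC-7 was 1.497 in Control and 1.596 in HSP90i libraries. A difference of at least 2-fold between the lines was seen for 3303 genes (32.5%) in Control and 4017 genes (39.5%) in HSP90i libraries, with no test of this change.

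The cytosolic heat shock response was larger in MEF for most of its genes. Of 21 tested members, 13 had a difference above 0 and 3 below, beside 23.5% and 31.3% of all tested genes. In MEF 17 rose and 3 fell, beside 36.2% and 35.3% of all tested genes, with a median log2 change of 1.02. In HPC-7 13 rose and 8 fell, beside 42.4% and 34.1%, with a median of 0.28. The median difference was 0.51, and 0.47 to 0.73 over all settings tried. This list, like all lists here, was drawn up with earlier results of these data known, so its direction is not independent evidence.

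Hspa8, the constitutive cytosolic HSP70, had 1796, 1907 and 2006 CPM in MEF Control and 10580, 12070 and 11780 CPM in MEF HSP90i. In HPC-7 it went from 1201, 1205 and 1289 CPM to 4074, 3901 and 4307 CPM. The groups did not overlap in either line, with log2 changes of 2.59 ± 0.07 (standard error, SE) in MEF and 1.73 ± 0.07 in HPC-7, and the difference was 0.86 ± 0.10 (adjusted p = 9.7e-06, edgeR). Hsph1, an HSP110 nucleotide exchange factor for HSP70, differed by 0.77 ± 0.09, and Dnaja1, a J-domain partner of HSP70, by 0.85. Hspe1, the mitochondrial co-chaperonin HSP10, had 261, 241 and 256 CPM in MEF Control, 588, 589 and 607 CPM in MEF HSP90i, 125, 122 and 130 CPM in HPC-7 Control and 149, 148 and 142 CPM in HPC-7 HSP90i. Its rise was 1.24 ± 0.05 in MEF and 0.22 ± 0.05 in HPC-7.

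Hspa1b, the stress-inducible HSP70, went the other way, from a very low level in HPC-7 Control. Its level was 73.1, 65.9 and 72.6 CPM in MEF Control and 209, 239 and 210 CPM in MEF HSP90i, against 0.665, 0.802 and 0.701 CPM in HPC-7 Control (12, 10 and 9 counts) and 17.2, 28.1 and 15.6 CPM in HPC-7 HSP90i. The log2 change was 1.64 ± 0.14 in MEF and 4.79 ± 0.28 in HPC-7, so the difference was -3.16 ± 0.34 (adjusted p = 6.3e-06, edgeR), while the level after treatment remained higher in MEF in all libraries. Its near-identical neighbour Hspa1a, which can exchange reads with it, missed the filter with a mean of 0.905 CPM in HPC-7: it had 4, 1 and 1 counts in HPC-7 Control and 19, 26 and 12 counts in HPC-7 HSP90i. Dnajb1 (-0.30 ± 0.11) and Dnajb6 (-0.36), J-domain co-chaperones, were the other members with a difference below 0, and the call on Dnajb1 was lost under most scalings, for example with RLE factors (-0.24, adjusted p = 0.093, edgeR). Bag3, which links HSP70 to autophagy, rose in both lines with a difference of 0.35 ± 0.12, a call that was lost without HPC-7 Control replicate 3 (0.32, adjusted p = 0.059, edgeR).

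The HSP90 genes themselves responded unequally. Hsp90ab1, the constitutive cytosolic form, rose from 3983, 4026 and 4343 CPM to 10240, 10690 and 10020 CPM in MEF and from 2867, 2952 and 3017 CPM to 5381, 4875 and 5246 CPM in HPC-7, a difference of 0.51 ± 0.09. Hsp90aa1, the stress-inducible cytosolic form, rose in MEF from 936, 977 and 533 CPM to 2108, 1644 and 2179 CPM and fell in HPC-7 from 650, 611 and 631 CPM to 363, 573 and 414 CPM. The low MEF Control value is that of replicate 3, and the difference of 1.77 ± 0.29 was 1.69 without it. Hsp90b1, the ER form GRP94, rose in MEF from 1597, 1721 and 1222 CPM to 4510, 4369 and 5147 CPM and fell in HPC-7 from 409, 380 and 378 CPM to 235, 277 and 244 CPM. Groups did not overlap in either line, and the difference was 2.25 ± 0.16 (adjusted p = 1.7e-07, edgeR). Trap1, the mitochondrial form, stayed at 131 to 142 CPM in all 6 MEF libraries, while in HPC-7 it fell from 179, 183 and 184 CPM to 71.3, 90.4 and 71.1 CPM, a difference of 1.27 ± 0.11. Of the 4 HSP90 genes only Hsp90ab1 rose in both lines.

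Of the 21 tested heat shock genes, 4 were called in opposite directions in the 2 lines, beside 1127 of all 10167 tested genes. The co-chaperone genes Ahsa1 and Stip1 were among these. Ahsa1, which stimulates the HSP90 ATPase, rose by 1.02 ± 0.08 in MEF and fell by 0.29 in HPC-7, and Stip1, which hands clients from HSP70 to HSP90, rose by 0.73 ± 0.09 in MEF and fell by 0.62 in HPC-7. Hspd1, the mitochondrial chaperonin HSP60, showed the widest difference above 0 in the list, 2.13, with a log2 change of 0.63 in MEF and -1.49 in HPC-7. Of 22 other HSP90 co-chaperones, 7 had a difference above 0 and 5 below, beside 23.5% and 31.3% of all tested genes. Their median was -0.02, and its sign depended on the setting. Ppp5c, a phosphatase, had 95.3, 97.2 and 97.4 CPM in MEF Control, 98.6, 99 and 90.1 CPM in MEF HSP90i, 128, 141 and 133 CPM in HPC-7 Control and 63.1, 75.7 and 55.9 CPM in HPC-7 HSP90i. Transcripts of Hsf1 did not differ detectably, with a difference of 0.01 and a 95% interval of -0.28 to 0.30. Hcfc1, a chromatin cofactor of cell cycle genes, had 337, 349 and 354 CPM in MEF Control, 452, 452 and 438 CPM in MEF HSP90i, 481, 541 and 532 CPM in HPC-7 Control and 498, 512 and 477 CPM in HPC-7 HSP90i, with a called rise in MEF and a log2 change of -0.06 in HPC-7, a difference of 0.43 ± 0.08. Among 26 genes of HCFC1 and its chromatin partners, 7 had a difference above 0 and 10 below. These counts were not far from the 23.5% and 31.3% of all tested genes. Kmt2a, a histone H3 methyltransferase, had a log2 change of 0.09 in MEF and rose by 1.14 in HPC-7, and Ogt, the enzyme that adds N-acetylglucosamine to nuclear proteins, rose by 0.53 and 1.44. Among 19 genes of polymerase pausing, 4 had a difference above 0 and 5 below, near the same shares. Hexim1, an inhibitor of P-TEFb, rose by 0.20 in MEF and had a log2 change of -0.56 in HPC-7. The sign of the median difference of both lists depended on the setting, and Kmt2a, Ogt and Hexim1 are given as single genes.

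Promoter sequences are shown for 3 members whose responses differed in distinct ways: Hspa1b (larger in HPC-7), Hspe1 (larger in MEF) and Stip1 (opposite directions). They are the 250 bases before the start of the gene (RefSeq, GRCm38.p6), read 5′ to 3′ on the gene's strand, with heat shock elements in capitals: the motif GAANNTTC in Hspa1b, and a run of 3 or more alternating units in Hspe1.
Hspa1b, chr17:34959239-34959488, minus strand: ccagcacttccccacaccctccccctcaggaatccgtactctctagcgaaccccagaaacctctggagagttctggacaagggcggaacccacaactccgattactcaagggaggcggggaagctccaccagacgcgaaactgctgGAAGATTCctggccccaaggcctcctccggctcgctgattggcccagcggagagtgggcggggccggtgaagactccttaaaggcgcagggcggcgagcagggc
Hspe1, chr1:55087898-55088147, plus strand: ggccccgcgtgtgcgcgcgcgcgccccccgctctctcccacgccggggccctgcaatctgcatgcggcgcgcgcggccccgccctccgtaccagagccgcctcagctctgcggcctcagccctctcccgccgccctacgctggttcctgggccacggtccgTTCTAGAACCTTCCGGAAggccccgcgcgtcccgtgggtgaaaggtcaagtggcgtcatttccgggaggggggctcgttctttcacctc
Stip1, chr19:7040027-7040276, minus strand: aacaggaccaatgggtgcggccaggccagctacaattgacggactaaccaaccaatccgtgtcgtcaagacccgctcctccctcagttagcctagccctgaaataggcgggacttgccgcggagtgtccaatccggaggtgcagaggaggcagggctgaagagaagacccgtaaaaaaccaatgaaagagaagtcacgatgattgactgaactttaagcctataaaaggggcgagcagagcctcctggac
Windows of 300 bases (250 before to 50 after the start) were given for 18 of the 21 members, 26 windows in all. GAANNTTC, which is its own reverse complement, occurred in 42.3% of these windows, in 5.66% of 9688 windows of tested genes and in 7.86% of all 32851 windows. A run of 3 units with 2 bases between them, on either strand, occurred in 26.9%, 0.516% and 0.603% of the same windows. Windows of 1 gene can overlap and hold the same run, as those of Dnajb6 and of Hsph1 did. Counted by gene, the run occurred in 5 of the 18 heat shock genes (27.8%) and in 0.579% of the 7597 tested genes with a window. No match in Stip1 says only that these letters are not in its window. The run in Hspe1 lies in the stretch that it shares with Hspd1, which is transcribed the other way: the Hspe1 change was a rise in both lines, while Hspd1 rose in MEF and fell in HPC-7.

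**Figure D3:**
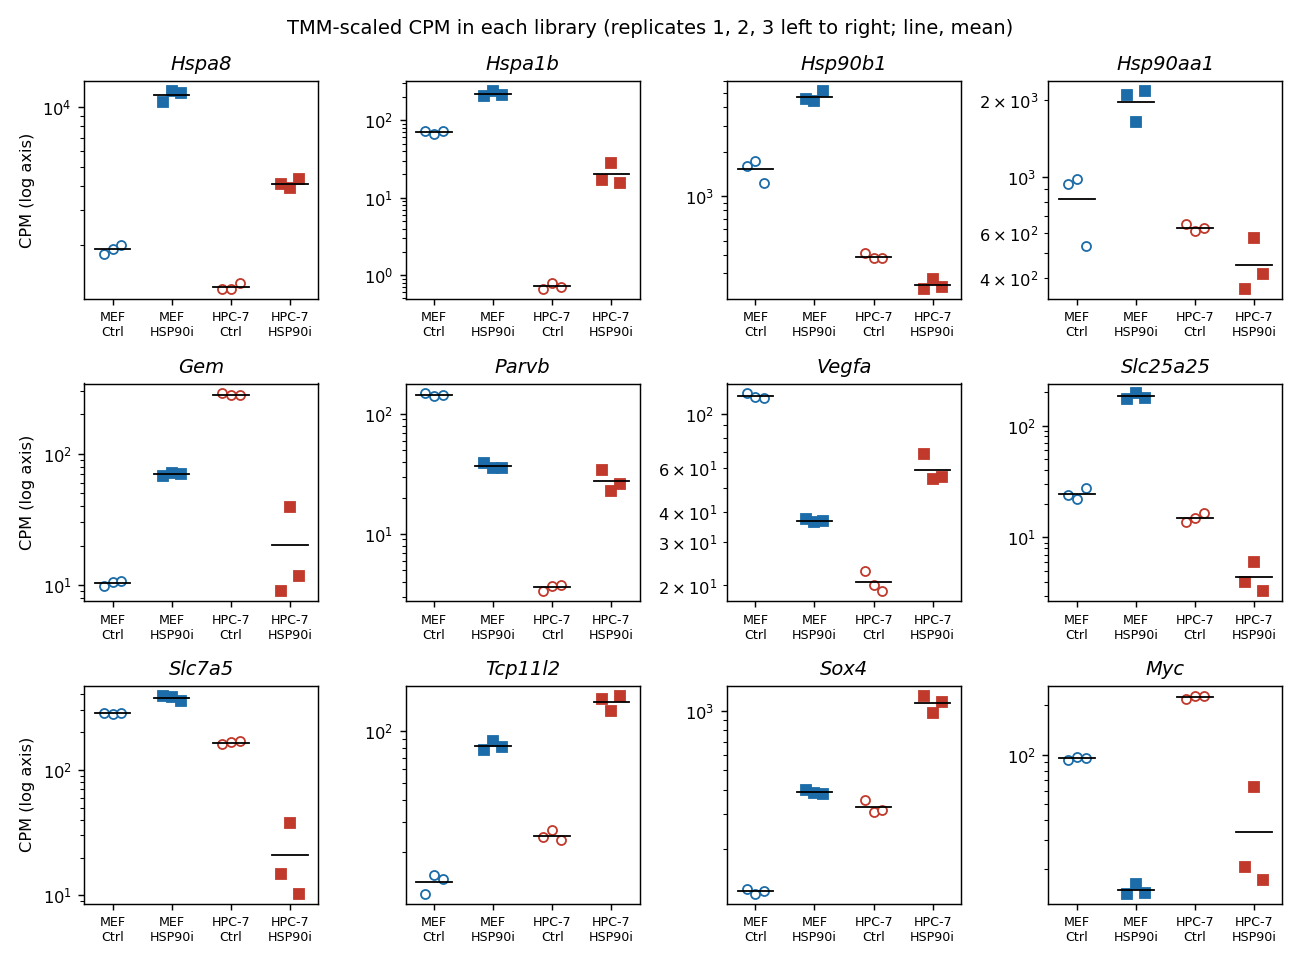
TMM-scaled CPM (log axis) of 12 genes in each of the 12 libraries, with Control as open circles, HSP90i as filled squares and a line at the group mean. Hspa8 rises in both lines, Hsp90b1, Hsp90aa1, Gem and Slc25a25 rise in MEF and fall in HPC-7, Parvb and Vegfa do the reverse, and Tcp11l2 and Sox4 rise alike.

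Genes of ER folding, protein degradation and respiration had mostly higher responses in MEF. The median log2 changes in HPC-7 were -0.49, -0.54 and -0.50 for the ER, proteasome and oxidative phosphorylation lists. Those in MEF were 0.19, 0.07 and 0.14, about the size of a shift between scalings, so no direction is read from them. Of 26, 32 and 46 tested members, 8, 7 and 14 were called in opposite directions in the 2 lines, beside 1127 of all 10167 tested genes. Of 26 tested genes of ER chaperones and ER-associated degradation, 16 had a difference above 0 and 1, Herpud1, below (-0.98, named after its value was seen). Of all tested genes 23.5% lay above and 31.3% below. In MEF 13 rose and 4 fell, and in HPC-7 6 rose and 16 fell, beside 36.2% and 35.3% of all tested genes in MEF and 42.4% and 34.1% in HPC-7. Pdia3, a disulfide isomerase that works with calnexin and calreticulin, went from 954, 1024 and 1025 CPM to 2127, 2335 and 2406 CPM in MEF and from 395, 378 and 378 CPM to 260, 274 and 249 CPM in HPC-7. Its difference was 1.75 ± 0.09, as was that of Pdia6, and Pdia4 differed by 1.25 ± 0.07. Hspa5, the ER HSP70 BiP, fell in both lines, by 0.58 in MEF and by 1.31 in HPC-7, so not every ER chaperone gene rose in MEF. Over all settings tried the median difference of the list was 0.60 to 0.88.

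Among 32 proteasome subunits, 27 had a difference above 0 and 1, Psmd11, below, with a median of 0.55. Of all tested genes 23.5% lay above and 31.3% below. In HPC-7 28 fell and 0 rose, beside 34.1% and 42.4% of all tested genes. In MEF 9 rose and 8 fell, shares below the 36.2% and 35.3% of all tested genes. Psma1, a subunit of the outer ring of the core particle, had 165, 160 and 156 CPM in MEF Control, 262, 258 and 270 CPM in MEF HSP90i, 174, 173 and 174 CPM in HPC-7 Control and 126, 141 and 127 CPM in HPC-7 HSP90i. Of 46 nuclear genes of oxidative phosphorylation, 43 had a difference above 0 and 0 below, beside 23.5% and 31.3% of all tested genes, with a median of 0.60. In HPC-7 40 fell and 1, Ndufa6, rose, and in MEF 19 rose and 7 fell, beside the same shares of all tested genes. The median response of this list was 0.137, 0.121 and 0.117 in the 3 MEF HSP90i libraries and -0.410, -0.490 and -0.596 in the 3 HPC-7 HSP90i libraries.
Ndufa4, a small respiratory chain subunit, had 229, 205 and 212 CPM in MEF Control and 246, 240 and 240 CPM in MEF HSP90i, against 136, 136 and 138 CPM in HPC-7 Control and 59.2, 62.0 and 51.8 CPM in HPC-7 HSP90i. The groups did not overlap in either line, and the difference was 1.41 ± 0.09. Uqcrq of complex III differed by 1.52 ± 0.11. Of 10 tested mRNAs of the mitochondrial genome, 3 (mt-Nd1, mt-Nd5 and mt-Cytb) had a difference above 0 and 0 below, beside 23.5% and 31.3% of all tested genes. The median response of the 10 mRNAs was 0.265, 0.213 and 0.720 in the MEF HSP90i libraries. It was -0.748, -0.0404 and 0.427 in the HPC-7 HSP90i libraries, so the lines overlapped.

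**Figure D4:**
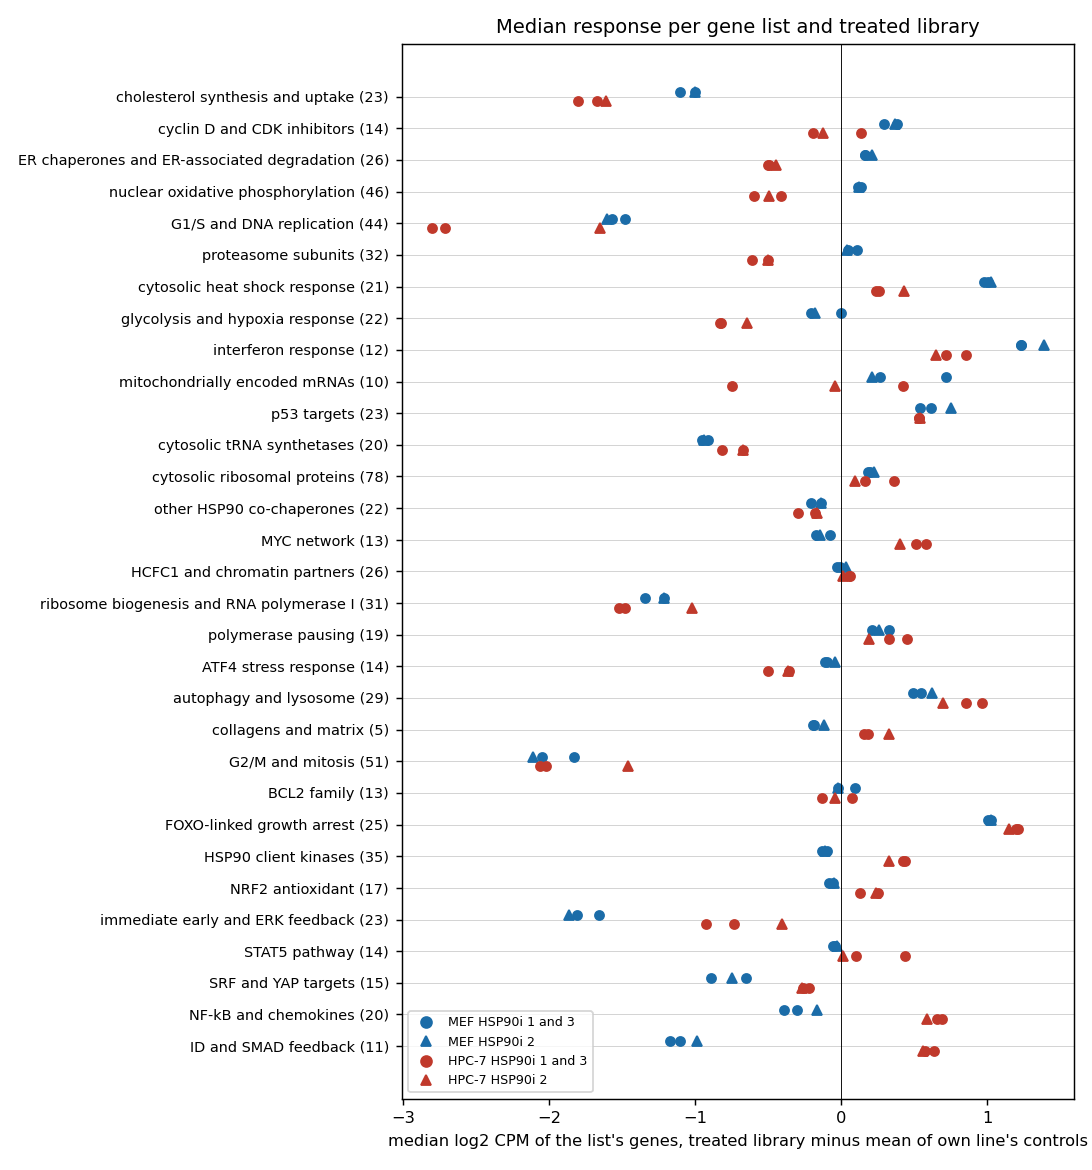
Median log2 response of each gene list (rows) in each of the 6 treated libraries, each taken against the mean of its own line's Control libraries, with MEF in blue and HPC-7 in red and replicate 2 as a triangle. For oxidative phosphorylation and proteasome subunits the MEF points lie just above 0 and the HPC-7 points below, and for ID and SMAD feedback the MEF points lie below 0 and the HPC-7 points above.

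Cholesterol genes fell in both lines and fell further in HPC-7. Of 23 tested genes of synthesis and uptake, 20 fell and 1 rose in MEF (median -1.05), and all 23 fell in HPC-7 (median -1.70), beside 35.3% and 34.1% of all tested genes. The difference was above 0 for 17 and below 0 for none, beside 23.5% and 31.3% of all tested genes. Fdps, which makes farnesyl diphosphate, went from 194, 186 and 207 CPM to 103, 105 and 114 CPM in MEF and from 142, 141 and 140 CPM to 17.4, 24.8 and 17.4 CPM in HPC-7, a difference of 1.97 ± 0.15. The member that rose in MEF was Hsd17b7, a sterol ketoreductase, with 63.1, 73.9 and 74.5 CPM in MEF Control, 98.5, 110 and 100 CPM in MEF HSP90i, 30.3, 26.2 and 28.0 CPM in HPC-7 Control and 6.08, 8.86 and 4.71 CPM in HPC-7 HSP90i.

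Of 22 genes of glycolysis and the hypoxia response, 13 had a difference above 0 and 2, Vegfa and Hk2, below, with a median of 0.44. Of all tested genes 23.5% lay above and 31.3% below. Tpi1, a glycolytic enzyme whose gene has near-identical copies that may share reads, differed by 2.19 ± 0.16, and the glucose transporter gene Slc2a1 by 1.48 ± 0.10, rising in both lines. Vegfa, the angiogenic growth factor, fell in MEF and rose in HPC-7. It went from 121, 117 and 115 CPM to 37.2, 36.4 and 36.5 CPM in MEF and from 22.9, 20.1 and 18.9 CPM to 68.4, 54.1 and 55.1 CPM in HPC-7. The treated HPC-7 libraries thus lay above the treated MEF libraries although the Control order was the reverse. The difference was -3.20 ± 0.13 (adjusted p = 2.6e-09, edgeR).

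Feedback genes of TGF-beta and BMP signalling had lower responses in MEF without exception. These pathways act through SMAD transcription factors and are held back by the inhibitory SMADs, SKI proteins and SMURF ligases they induce. All 11 tested members had a difference below 0, beside 31.3% of all genes, with a median of -1.62 and 9 to 11 called over all settings tried. In MEF 9 fell and 0 rose, beside 35.3% and 36.2% of all tested genes. In HPC-7 8 rose and 1, Id1, fell, beside 42.4% and 34.1%. Smad7, an inhibitory SMAD, had 39.6, 39.4 and 37.4 CPM in MEF Control, 4.04, 4.92 and 3.11 CPM in MEF HSP90i, 3.88, 4.49 and 4.21 CPM in HPC-7 Control and 9.65, 7.17 and 8.67 CPM in HPC-7 HSP90i. All treated HPC-7 libraries exceeded all treated MEF libraries, and the difference was -4.31 ± 0.20 (adjusted p = 6.2e-09, edgeR). Ltbp1 and Ltbp3, which tether latent TGF-beta in the matrix, differed by -2.53 ± 0.12 and -1.73 ± 0.10, and Smad6, the other inhibitory SMAD, by -2.42.

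NF-kB genes also had mostly lower responses in MEF. Of 20 tested members, 15 had a difference below 0 and 1, Ikbkg, above, beside 31.3% and 23.5% of all tested genes, with a median of -0.71. In HPC-7 13 rose and 2 fell, beside 42.4% and 34.1% of all tested genes. In MEF 3 rose and 9 fell, beside 36.2% and 35.3%. Tnfaip3, the ubiquitin-editing enzyme A20 that shuts the pathway off, went from 42.5, 43.7 and 39.7 CPM to 19.1, 20.7 and 19.8 CPM in MEF and from 11.3, 11 and 11.6 CPM to 35.9, 30.6 and 38.6 CPM in HPC-7. Its difference was -2.72 ± 0.13. The chemokine gene Ccl9 differed by -5.73 ± 0.25 from a level below 1 CPM in HPC-7 Control, and Tnfaip2 by -4.47 ± 0.27.

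Immediate early genes and ERK feedback genes split. Of 23 tested members, 12 had a difference below 0 and 5 above, beside 31.3% and 23.5% of all tested genes. Without HPC-7 HSP90i replicate 2 the counts were 13 and 10, beside 3308 and 2633 of all 10167 tested genes. In MEF 20 fell and 3 rose, beside 35.3% and 36.2% of all tested genes. In HPC-7 13 fell and 6 rose, beside 34.1% and 42.4%. Junb, a subunit of AP-1, fell by 2.42 ± 0.10 in MEF and rose by 0.32 ± 0.10 in HPC-7. Ier3, an early response gene linked to survival, had 92.5, 89.7 and 91.8 CPM in MEF Control, 24.1, 25.1 and 20.7 CPM in MEF HSP90i, 17.3, 17.7 and 20.5 CPM in HPC-7 Control and 57.1, 39.6 and 41.1 CPM in HPC-7 HSP90i. Above 0 were the nuclear receptor gene Nr4a1 (3.73), the MAP kinase phosphatase genes Dusp1 (2.37) and Dusp4 (1.47), Spred2 (1.61) and Klf10 (0.44), named after their values were seen.

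Of 15 actin cytoskeleton and adhesion genes known as targets of SRF and YAP, 14 fell in MEF and 0 rose, beside 35.3% and 36.2% of all tested genes. In HPC-7 8 fell and 5 rose, beside 34.1% and 42.4%. The difference was below 0 for 10 and above for 3 (Cnn3, Lats2 and Axl), beside 31.3% and 23.5% of all tested genes. Tpm1, a tropomyosin, went from 2263, 2421 and 2492 CPM to 776, 871 and 770 CPM in MEF and from 157, 153 and 147 CPM to 239, 216 and 246 CPM in HPC-7, a difference of -2.19 ± 0.10. Flna (filamin A) differed by -1.32 ± 0.09 and Cnn2 (calponin 2) by -1.24 ± 0.08.

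Transcripts of kinases known as HSP90 clients had mostly lower responses in MEF. Of 35 tested, 21 had a difference below 0 and 4 above, beside 31.3% and 23.5% of all tested genes, with a median of -0.46. In HPC-7 24 rose and 8 fell, beside 42.4% and 34.1% of all tested genes, and in MEF 10 rose and 15 fell, beside 36.2% and 35.3%. Cdk6, a cell cycle kinase, had 18.9, 17.5 and 21.1 CPM in MEF Control, 6.46, 5.15 and 5.11 CPM in MEF HSP90i, 131, 144 and 138 CPM in HPC-7 Control and 257, 257 and 361 CPM in HPC-7 HSP90i. Its difference was -2.83 ± 0.21, that of Ilk, a pseudokinase scaffold of focal adhesions, -1.26 ± 0.09, and that of Fgfr1, a growth factor receptor, -3.02 ± 0.17. The value for Kit (-4.28 ± 1.55) rests on the trace in MEF Control replicate 3, since Kit had 2, 0 and 77 counts in MEF Control and 0, 0 and 11 in MEF HSP90i. In the STAT5 list, 8 of 14 had a difference below 0 and 3 above, beside the same shares of all tested genes. Cish, a feedback inhibitor of cytokine receptors, fell by 1.35 in MEF and rose by 1.49 in HPC-7, and Pim1, a survival kinase, fell by 1.76 in MEF and had a log2 change of 0.02 in HPC-7.

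Among 17 antioxidant genes known as NRF2 targets, 9 had a difference below 0 and 5 above, beside 31.3% and 23.5% of all tested genes. In MEF 6 rose and 7 fell, beside 36.2% and 35.3% of all tested genes. In HPC-7 8 rose and 6 fell, beside 42.4% and 34.1%. Hmox1, haem oxygenase, rose in both lines, by 0.64 ± 0.10 in MEF and 3.27 ± 0.20 in HPC-7, and Gclm, a subunit of the enzyme that starts glutathione synthesis, fell by 0.95 in MEF and rose by 1.40 in HPC-7. Tkt of the same list went the other way. Its Control and HSP90i means were 380 and 434 CPM in MEF and 754 and 362 CPM in HPC-7. Of 12 tested interferon response genes, 6 had a difference above 0 and 2, Ifit2 and Irf9, below, beside 23.5% and 31.3%. Bst2, a surface protein that tethers virions, rose by 1.52 ± 0.10 in MEF and fell by 0.77 in HPC-7. Among 14 ATF4 stress genes, 4 had a difference above 0 and 6 below, beside the same shares. Ddit3 (CHOP) had 25.8, 26.4 and 29.2 CPM in MEF Control, 27.0, 25.9 and 25.1 CPM in MEF HSP90i, 16.3, 15.2 and 15 CPM in HPC-7 Control and 68.6, 51.3 and 60.9 CPM in HPC-7 HSP90i. Slc7a5, an amino acid transporter of the same list, was at 286, 277 and 284 CPM in MEF Control and 388, 380 and 353 CPM in MEF HSP90i, and fell in HPC-7 from 161, 165 and 169 CPM to 14.8, 37.8 and 10.3 CPM. The difference for Slc7a5 was 3.40, and 4.10 without HPC-7 HSP90i replicate 2, the highest of the treated libraries.

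Proliferation genes fell in both lines. All 44 tested genes of G1/S and DNA replication fell in MEF (median -1.56) and 43 fell in HPC-7 (median -2.26). All 51 of G2/M and mitosis fell in MEF (median -1.99) and 49 in HPC-7 (median -1.85). Of all tested genes 35.3% fell in MEF and 34.1% in HPC-7. For G1/S the difference was above 0 for 19 and below for 5, beside 23.5% and 31.3% of all tested genes, with a median of 0.57. Without HPC-7 HSP90i replicate 2 these were 37, 5 and 1.05, beside 2633 genes above and 3308 below of all 10167 tested genes. The list median was -1.57, -1.60 and -1.48 in the MEF HSP90i libraries and -2.71, -1.65 and -2.80 in the HPC-7 HSP90i libraries, so that replicate 2 lay close to MEF. For G2/M the difference was above 0 for 1, Spc24, and below for 19, and without that replicate for 12 and 18. The 19 of 51 below 0 were not far from the 31.3% of all tested genes. Without that replicate, 12 and 18 of 51 were not far from the 2633 and 3308 of all 10167.

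Cenpa, the centromeric histone H3 variant, was the only G2/M gene that rose in HPC-7. It went from 127, 130 and 123 CPM to 44.2, 41.9 and 46.8 CPM in MEF and from 136, 138 and 147 CPM to 239, 196 and 214 CPM in HPC-7, with a difference of -2.13 ± 0.11. Chaf1b, a subunit of the chromatin assembly factor CAF-1, fell further in MEF (-1.81 ± 0.14), and E2f1, a driver of S-phase genes, further in HPC-7 (0.99 ± 0.15). Myc had 93.5, 96.3 and 95.8 CPM in MEF Control, 14.1, 16.3 and 14.2 CPM in MEF HSP90i, 219, 229 and 227 CPM in HPC-7 Control and 20.5, 63.6 and 17.1 CPM in HPC-7 HSP90i. Its difference was 0.07 (95% interval -0.99 to 1.13), and 0.89 without HPC-7 HSP90i replicate 2, the library with the high value (adjusted p = 2.4e-05, edgeR). Among the cyclin D and CDK inhibitor genes, Ccnd2 rose by 0.44 in MEF and fell by 1.16 in HPC-7.

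Several lists changed the same way in both lines. Of 29 autophagy and lysosome genes, 25 rose in MEF and 26 in HPC-7, beside 36.2% and 42.4% of all genes. The difference was below 0 for 12 and above for 4, beside 31.3% and 23.5% of all genes. Wipi1, which binds the forming autophagosome, rose by 0.33 in MEF and 1.89 in HPC-7. Of 25 growth arrest genes linked to FOXO factors, 20 rose in MEF and 23 in HPC-7, beside 36.2% and 42.4% of all genes. Txnip, an inhibitor of glucose uptake, rose more in MEF (3.21 against 1.60), and Btg1, an antiproliferative gene, more in HPC-7 (1.86 against 0.70). Of 23 p53 targets 15 rose in MEF and 16 in HPC-7, beside the same shares. In MEF and HPC-7, 28 and 30 of 31 ribosome biogenesis genes fell, and 17 and 18 of 20 tRNA synthetase genes fell. Of all genes 35.3% fell in MEF and 34.1% in HPC-7. The sign of the median difference depended on the setting for the p53, ribosome biogenesis, tRNA synthetase and ribosomal protein lists. Of the 78 ribosomal protein genes, 7 had a difference above 0 and 4 below, beside 23.5% and 31.3% of all genes. In MEF 43 of them rose and in HPC-7 44, beside 36.2% and 42.4% of all genes.

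The gene with the largest difference above 0 was Gem (ENSMUSG00000028214, chr4:11704447-11714993 in GRCm38.p6), a small GTP-binding protein that restrains calcium channels. It rose in MEF from 9.82, 10.6 and 10.8 CPM to 68.2, 71.6 and 70.7 CPM and fell in HPC-7 from 289, 280 and 279 CPM to 8.97, 39.4 and 11.8 CPM. The order of the lines reversed, with every Control HPC-7 library above every Control MEF library and every treated one below, and the difference was 6.61 ± 0.53 (adjusted p = 4.4e-07, edgeR). Without HPC-7 HSP90i replicate 2, the highest treated HPC-7 library, it was 7.54.

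Slc25a25, a mitochondrial carrier of ATP-Mg and phosphate, rose in MEF from 24.0, 22.0 and 27.9 CPM to 174, 194 and 178 CPM and fell in HPC-7 from 13.6, 14.9 and 16.4 CPM to 4.03, 5.97 and 3.30 CPM. Parm1, a mucin-like membrane protein, had 10.9, 10.8 and 11 CPM in MEF Control, 18.1, 21.9 and 22.6 CPM in MEF HSP90i, 29.2, 31.0 and 31.6 CPM in HPC-7 Control and 1.90, 2.59 and 2.73 CPM in HPC-7 HSP90i. Neither gene's groups overlapped in either line, and the differences were 4.65 ± 0.20 and 4.61 ± 0.18. Scd1, the desaturase that makes oleate, rose by 0.37 in MEF and fell by 4.13 in HPC-7, to 5, 15 and 7 counts. Its difference was 4.50, and 5.16 without HPC-7 HSP90i replicate 2, the library with 15 counts. Kank3, of a family that links adhesions to microtubules, rose from 2.0, 2.02 and 1.25 CPM to 41.6, 41.9 and 37.6 CPM in MEF and had 2.77, 2.40 and 2.02 CPM in HPC-7 Control and 3.80, 3.29 and 2.64 CPM in HPC-7 HSP90i.

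At the other end, Parvb (ENSMUSG00000022438, chr15:84232043-84315689), the focal adhesion protein beta-parvin that binds ILK, fell in MEF from 148, 141 and 144 CPM to 39.3, 35.3 and 35.7 CPM and rose in HPC-7 from 3.32, 3.69 and 3.74 CPM to 34.1, 22.7 and 26.2 CPM. The lines lay far apart in Control and close together after treatment, and the difference was -4.93 ± 0.18 (adjusted p = 1.9e-09, edgeR). Gnb4, a G protein beta subunit, fell in MEF from 32.2, 30.1 and 28.2 CPM to 2.65, 2.46 and 3.11 CPM and rose in HPC-7 from 254, 247 and 240 CPM to 542, 526 and 626 CPM. Arid5a, an RNA-binding regulator of inflammatory mRNAs, fell in MEF from 14.4, 11.5 and 15.8 CPM to 3.14, 1.99 and 2.22 CPM and rose in HPC-7 from 3.93, 2.97 and 2.80 CPM to 19.6, 18.1 and 18.7 CPM. Their differences were -4.66 ± 0.14 and -4.95 ± 0.24.

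Other large differences below 0 came from genes near the limit of detection in HPC-7 Control. Jam3, Sox9, Ptpn14 and Mycl were below 1 CPM there and passed the filter only through the HPC-7 HSP90i libraries. The filter thus favoured a rise of these genes in HPC-7, and its direction is not independent evidence. Jam3, a junctional adhesion molecule, had 0 counts in each HPC-7 Control library and 31, 16 and 25 counts in HPC-7 HSP90i, at least 30.8-fold higher against a floor of 3 counts over the group. Sox9, a transcription factor of cartilage and progenitor cells, had 2, 0 and 1 counts and then 38, 17 and 21 counts, while it fell by 1.10 in MEF. The ratio of its HPC-7 levels was 32.5, with a 95% interval of 10.7 to 161. This interval comes from counting alone and leaves out the spread between libraries. Ptpn14, a phosphatase that restrains YAP, rose from 1, 1 and 2 counts to 286, 183 and 226 counts in HPC-7 and from 163, 145 and 156 CPM to 458, 446 and 419 CPM in MEF. Mycl, a MYC family member, had 4, 4 and 1 counts in HPC-7 Control and 22.7, 15.5 and 20.6 CPM in HPC-7 HSP90i.

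Some genes changed in the same direction but by very different amounts. Hmga2, a chromatin protein of embryonic and transformed cells, fell in MEF from 1241, 1421 and 1377 CPM to 68.9, 75.7 and 68.9 CPM and in HPC-7 from 232, 234 and 218 CPM to 130, 176 and 152 CPM. Stard9, a mitotic kinesin, rose in MEF from 45.1, 43.6 and 51.6 CPM to 76.4, 71.5 and 70.2 CPM and in HPC-7 from 22.1, 19.5 and 19.6 CPM to 386, 327 and 438 CPM. The differences were -3.66 ± 0.14 and -3.59 ± 0.15.

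A response in 1 line alone was counted where that line changed at least 2-fold, the difference was called and the 95% interval of the other line's log2 change lay within ±0.5. By this rule 93 genes rose and 96 fell in MEF alone, and 172 rose and 89 fell in HPC-7 alone. Rgs2, a brake on G protein signalling, rose in MEF from 8.81, 8.18 and 9.78 CPM to 65.9, 60.8 and 68.2 CPM, with 28.8, 24.9 and 24.2 CPM in HPC-7 Control and 23.2, 21.3 and 21.7 CPM in HPC-7 HSP90i. Klf6, a zinc finger factor, fell in MEF from 192, 204 and 200 CPM to 41.8, 45.1 and 45.8 CPM, with a log2 change of -0.21 in HPC-7. Lzts2, a regulator of beta-catenin export, rose in HPC-7 from 0.831, 1.12 and 1.56 CPM to 14.0, 11.3 and 10.1 CPM and had a log2 change of -0.02 in MEF. Arntl (BMAL1), a core clock factor, fell in HPC-7 from 12.2, 13.8 and 13.9 CPM to 1.67, 4.18 and 2.26 CPM and had a log2 change of 0.11 in MEF.

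A shared response was counted where both lines changed at least 2-fold the same way and the 95% interval of the difference lay within ±0.5, which held for 75 genes that rose and 80 that fell, out of 398 and 622 that changed at least 2-fold the same way in both. Over all tested genes the interval of the difference lay within ±0.5 for 2526 (24.8%). Tcp11l2 went from 11.4, 14.7 and 13.9 CPM to 77.7, 87.9 and 80.5 CPM in MEF and from 24.4, 26.7 and 23.5 CPM to 154, 130 and 160 CPM in HPC-7, a difference of 0.07 (95% interval -0.25 to 0.38). Sox4, a progenitor transcription factor, went from 126, 119 and 122 CPM to 399, 384 and 382 CPM in MEF and from 356, 307 and 316 CPM to 1193, 978 and 1109 CPM in HPC-7, a difference of -0.08 (-0.31 to 0.16). Btg2, an antiproliferative gene, rose by 1.77 in MEF and 1.85 in HPC-7. Among shared falls, Kif4, a mitotic kinesin, had a log2 change of -2.04 in MEF and -2.03 in HPC-7 (interval of the difference -0.36 to 0.36), and Racgap1, which acts in cytokinesis, -1.84 and -1.95. The shared count of Racgap1 rests on HPC-7 HSP90i replicate 2: without that library its difference was 0.28 and was called (adjusted p = 0.014, edgeR).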

How the data were processed

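RNA-seq of 12 mouse libraries, 3 per group of line and treatment, was analysed from the raw gene counts that the authors deposited. The submitters' processing notes name Trim Galore, TopHat2 2.0.13, Picard, featureCounts and DESeq2 among the tools, and GRCm38 and mm10 among the builds. The sources used here do not give whether counting used strand. Antisense and overlapping genes, and near-identical copies such as Hspa1a and Hspa1b, may share reads.

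Genes with a mean of at least 1 CPM in each line were kept. Counts were fitted with edgeR 4.0.16 (R 4.3.3): TMM factors over the 12 libraries, 4 group means and no covariate, quasi-likelihood tests of the response in each line and of their difference, and Benjamini-Hochberg adjustment over all 10167 genes with a threshold of 0.05. The standard error is the size of the log2 value over the root of F, or the Wald error where that size is near 0. CPM are TMM-scaled, and responses of single libraries use log2 CPM with a prior count of 2. Fits were tested on simulated data. Same-numbered replicates were not treated as pairs.

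The members and lists were chosen with earlier results of these data known. The genes named were, at a mean of at least 8 CPM: the 8 largest called differences per sign without overlap of the 3 responses, the 3 largest per pattern of directions, 4 per line and direction for a response in 1 line alone, and 6 shared responses per direction; also up to 3 members per list by interaction p, and 13 fixed genes. Some of these are left out of the text. Hspd1, Dnaja1, Dnajb6, Herpud1, Hspa5, Psmd11, Ndufa6, Hk2, Id1, Smad6, Ikbkg, Irf9, Spc24, Kit and the members given as exceptions were named after their values were seen. Promoter sequences are from RefSeq. Alternatives were other scalings, filters, tools and thresholds, a replicate block, and leaving out each library.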

Additional observations from a re-analysis of the deposited data

Results flagged for a closer look

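Among the genes with the largest differences at a mean of at least 8 CPM, together with the fixed genes, 14 were called in opposite directions in the 2 lines, and the difference itself passed the interaction test. Some genes below that level were also called in opposite directions with large differences, such as Mycl (-7.58) and Ccl9 (-5.73), which fell in MEF and rose in HPC-7. The log2 difference, MEF minus HPC-7, was above 0 for 9 of the 14, which rose in MEF and fell in HPC-7: Gem (6.61), Vipr2 (5.32), Tspan13 (5.09), Slc25a25 (4.65), Parm1 (4.61), Scd1 (4.50), Ccdc88c (4.35), Hsp90b1 (2.25) and Hsp90aa1 (1.77). It was below 0 for 5, which fell in MEF and rose in HPC-7: Sox9 (-5.92), Arid5a (-4.95), Parvb (-4.93), Gnb4 (-4.66) and Adamtsl5 (-4.56). Without HPC-7 HSP90i replicate 2 the difference of Gem was 7.54 and that of Scd1 5.16. The fall of Hsp90aa1 in HPC-7 was the closest of these to the threshold (adjusted p = 0.047, edgeR). Vipr2 and Ccdc88c were below 1 CPM in MEF Control, Sox9 in HPC-7 Control and Scd1 in HPC-7 HSP90i. Each passed the filter only through the other group of that line, so the filter favoured its direction of change there.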

How the results depend on the processing

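The count of genes with the MEF response above was 3628 with no filter on low counts beyond 1 count in each line. With at least 2-fold change required, 689 genes lay above and 967 below, and the genes called in MEF numbered 2027 and the genes called in HPC-7 2363. Leaving out 1 library at a time gave 2194 to 3152 genes above, 2204 to 3308 below, 6863 to 7445 called in MEF and 7386 to 7818 called in HPC-7. The replicate numbers did not pair the samples: the correlations of same-numbered deviations were 0.362, -0.283 and -0.269 in MEF and -0.0738, -0.00325 and -0.135 in HPC-7. A replicate block gave 2156 genes above, 2873 below, 6922 called in MEF and 7452 in HPC-7.

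Across the single genes named and all settings, 3370 values kept direction and side of the threshold, 36 lost the call and 3 gained it, and none reversed. Dnajb1 lost it under most settings. Bag3 lost it with the replicate block (adjusted p = 0.062, edgeR). The 3 gains, Myc, Cdca2 and Racgap1, came without HPC-7 HSP90i replicate 2. The causes were not tested. Low counts limit the differences of genes below 1 CPM in a group, such as the 130 tested genes below it in HPC-7 Control. Such a gene passed the filter only through the other group of that line, as Hspa1b and Ccl9 did in HPC-7. The filter thus favoured its direction of change in that line.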
